A study of Mus musculus with 6 samples.

Results

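The chaperone genes described here were the 79 genes, of 18193 measured, whose symbol in the platform annotation starts with Hspa, Hspb, Hspd, Hspe, Hsph, Hsp90, Dnaja, Dnajb or Dnajc, or is 1 of the 8 CCT subunit genes Tcp1, Cct2, Cct3, Cct4, Cct5, Cct6a, Cct7 and Cct8. Hspa5 was left out by the rule. The 79 genes had 196 probe sets, and each gene was read through its brightest probe set on average over the 6 arrays. The arrays (Affymetrix MOE430 2.0) came from bone marrow cells of healthy C57BL/6 mice. The 3 control samples were transfected with a control oligonucleotide and the 3 mimic samples with a synthetic mimic of the blood cell microRNA miR-142-3p, at 100 nM with the reagent GeneSilencer. Both groups received GM-CSF and IL-6 after 5 h and were cultured for 4 days, a culture that yields myeloid-derived suppressor cells, immature myeloid cells that restrain T cells. The labels do not say whether the arrays of a group came from separate cultures or animals, and the p-values here rest on the spread among these samples alone, which may be technical. These are mixed cultures measured in bulk, in which fewer cells of a type and less RNA per cell cannot be told apart.

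Chaperones bind unfolded or newly made proteins and help them reach their shape. HSP70 proteins (the Hspa genes) hold short stretches of unfolded chain in a cycle driven by ATP. J proteins (the Dnaj genes) bring clients to HSP70 and start that cycle, and HSP110 proteins and other exchange factors end it. HSP90 acts later, on kinases, receptors and other regulators, HSP60 with HSP10 and the ring-shaped CCT complex enclose proteins in a chamber, and small heat shock proteins (the Hspb genes) keep unfolded proteins from clumping. Heat and other protein damage raise several of these genes through the heat shock factor HSF1. Not every gene with such a symbol is a chaperone: Hspb11 encodes a protein of transport along cilia, Hspbp1 an HSP70 exchange factor and Hspbap1 a protein named for binding a small heat shock protein.

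The microRNA that the mimic stands for is shown first, since it is what differed between the groups. RefSeq (GRCm38.p6) places its mature arm at chr11:87756903-87756925 on the plus strand. The capitals mark the seed, bases 2 to 8, through which a microRNA pairs with its targets. The sequence of the oligonucleotide itself was not used here.
mmu-miR-142a-3p: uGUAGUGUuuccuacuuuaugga

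Values are the authors' deposited log2 levels. Array medians ran from 0.84 to 0.92 and 52.6% of all values lay below 1, so levels of 1 or 2 are near the bottom of the scale, where differences can be understated. The myeloid identity of the cultures was checked on 8 markers. S100a9, S100a8 and Lyz2 stood at 12.21, 11.85 and 11.40 on average in control, and none of the 8 lay below 2 on every array. Of the 8, 3 fell with the mimic: Itgam by 1.19, Csf1r by 0.57 and Lyz2 by 0.53 on the log2 scale (limma's adjusted p = 0.017, 0.0292 and 0.0238). Among 5 T and NK cell markers 4 (Cd3g, Cd3d, Cd2 and Ncr1) lay below 2 on every array. The summed linear level of 6 dendritic cell markers was 262 to 799 in control and 51.6 to 57.4 with the mimic, and that of 5 neutrophil precursor markers was 2230 to 3810 and 5790 to 5850. That of 5 mast cell and basophil markers was 293 to 545 and 685 to 771, with 2 of the 5 called higher, and that of 4 B cell markers was 76.2 to 115 and 59.8 to 71.4, with 1 called lower. That of 9 measured proliferation markers was 1730 to 1740 in control and 1750 to 1870 with the mimic, and 0 of these 9 passed the test. Control array 1 lay lowest of the controls in the precursor sum and highest in the dendritic sum. Whether these differences in marker levels play a part in the values of any chaperone gene was not tested. The difference between the 3′ and 5′ control probe sets of actin was 2.39 on mimic array 2 and 1.64 to 1.85 on the other 5 arrays, and that of Gapdh was 0.83 and 0.24 to 0.37. Precision is limited by the number of arrays.

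The comparison asked which chaperone transcripts differed between cultures given the miR-142-3p mimic and the control oligonucleotide. Most of the genes read nearly the same in both groups. Of the 79 genes 1 rose, 0 fell and 78 did not pass an adjusted p of 0.05 (limma, Benjamini-Hochberg over 18193 genes). Of all genes 2.76% passed, 1.17% higher and 1.59% lower, so that the 1.27% of chaperone genes that rose is a share near the background. At an unadjusted p under 0.05 there were 9 of the 79 chaperone genes, while 17% of all genes lay there. Differences are given as log2 with their standard error. The gene that rose was Dnajc6, which encodes auxilin, a J protein that strips clathrin from vesicles, and it was dim. It did not pass when control array 2 or any 1 mimic array was left out, and with single arrays left out the number of all genes called ran from 0 to 413. The median log2 fold change over the 79 genes was 0.027 and over all genes 0.009, with 48 chaperone genes higher and 31 lower in their means. Dnajb7, with equal means in both groups, was counted among the 48. The median size of the change, whatever its sign, was 0.097 among the 79 and 0.125 among all genes. The mimic arrays lay wholly outside the range of the control arrays for 15 of the 79 (9 higher, 6 lower), or 19.0%, against 22.2% of all genes (11% higher, 11.1% lower).

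A difference that misses the threshold can still be bounded by its 95% interval. For 64 of the 79 genes, or 81.0%, the interval lay within a 1.5-fold change either way, against 77.2% of all genes. Among the 24 chaperone genes whose mean log2 reached 6 it did so for 22, or 91.7%, against 73.8% of the 2304 genes at that level. In the same 24 genes 0 passed limma's adjusted p, while 7.16% of all genes at that level were called. At limma's unadjusted p under 0.05 there was 1 of the 24, against 697 of the 2304. The groups did not overlap in 3 of the 24, or 12.5%, against 43.8% of all genes at that level. Control array 1 was the lowest control in 15 of these 24, or 62.5%, against 49.0% of all genes at that level. A further 23 chaperone genes had a mean of 3 to 6 and 32 a mean under 3, of which 19 stayed below 2 on every array.

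**Figure D1:**
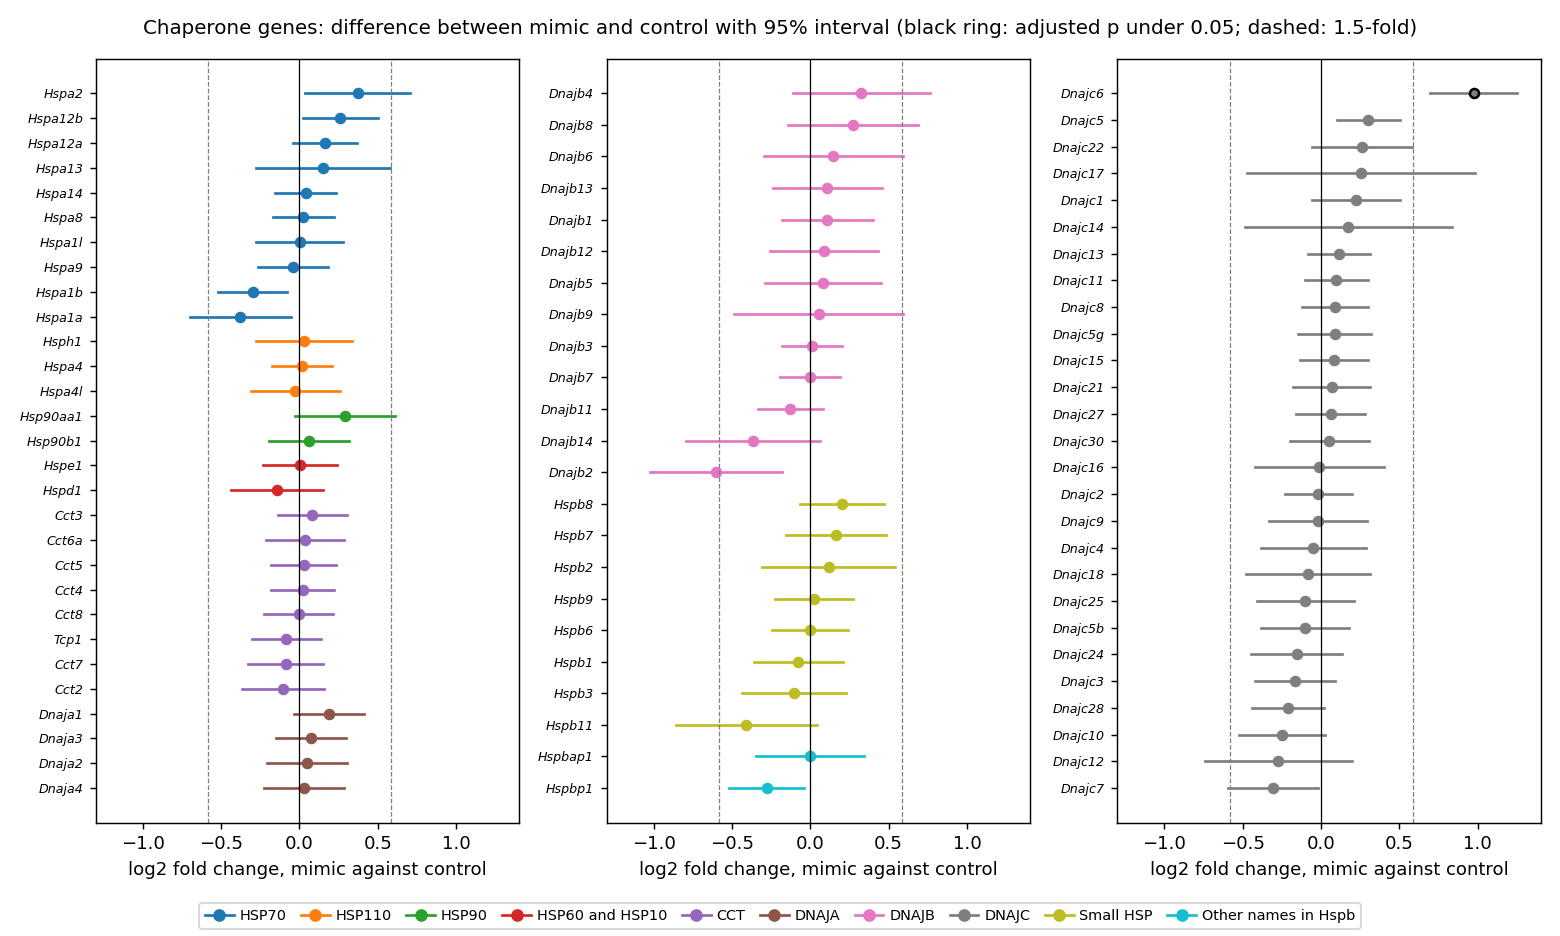
Log2 fold change of each of the 79 chaperone genes, mimic against control (x axis), with its 95% interval from limma as a bar, coloured by family. Dashed lines mark 1.5-fold either way. Dnajc6, at 0.97, is the only point with a black ring (adjusted p under 0.05), and all 8 CCT intervals lie inside the dashed lines.

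The constitutive HSP70 genes did not pass, and the intervals of the probe sets read here were narrow. Hspa8 (Entrez gene 15481), which encodes the main HSP70 of the cytosol, read 10.56, 10.65 and 10.63 on control arrays 1, 2 and 3 and 10.63, 10.63 and 10.64 on mimic arrays 1, 2 and 3. In this probe set the groups overlapped and no array stood apart (a log2 difference of 0.024 ± 0.084 at limma's adjusted p = 0.924, 95% interval -0.17 to 0.22). In the other probe sets of Hspa8, given below, the groups did not overlap. Hspa9 (15526), the HSP70 of the mitochondrial matrix, read 7.72, 7.57 and 7.56 in control and 7.52, 7.55 and 7.67 with the mimic. In this probe set its groups also overlapped (a log2 difference of -0.040 ± 0.10 at limma's adjusted p = 0.885, interval -0.26 to 0.18). The next brightest probe sets of Hspa9 were higher on all mimic arrays (0.275 ± 0.11 and 0.19 ± 0.084, adjusted p = 0.289 and 0.347 in limma's fit of all probe sets). Its dimmest ones had lower means (-0.28 ± 0.31 and -0.14 ± 0.16). Of the 3 genes counted here as HSP110, which exchange nucleotide on HSP70, Hspa4 (15525) read 7.87, 7.88 and 7.91 in control and 7.88, 7.91 and 7.91 with the mimic. Its 6 arrays were close together (a log2 difference of 0.015 ± 0.082 at limma's adjusted p = 0.95). Hsph1 (15505) read 5.81, 5.94 and 6.01 in control and 6.11, 6.06 and 5.69 with the mimic, with mimic array 3 below the other arrays (a log2 difference of 0.032 ± 0.13 at limma's adjusted p = 0.936). Hspa4l, outside the rule for named genes, did not pass (log2 fold change -0.025 ± 0.12).

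The stress-inducible HSP70 genes were dim and read lower with the mimic, without passing the test. Hspa1a (193740) read 0.95, 1.46 and 1.33 on control arrays 1, 2 and 3 and 0.91, 0.80 and 0.91 on mimic arrays 1, 2 and 3. The groups did not overlap, but control array 1, at 0.95, lay only just above the highest mimic arrays (a log2 difference of -0.38 ± 0.14 at limma's adjusted p = 0.217). Hspa1b (15511) read 1.51, 1.66 and 1.70 in control and 1.36, 1.27 and 1.34 with the mimic, again without overlap (a log2 difference of -0.30 ± 0.094 at limma's adjusted p = 0.153, interval -0.52 to -0.082). The other 2 probe sets of Hspa1b had log2 fold changes of -0.48 ± 0.14 and -0.53 ± 0.20 (adjusted p = 0.17 and 0.28 in limma's fit of all probe sets), so all 4 probe sets of the pair had lower means with the mimic. The 2 genes are near-identical copies, and the signal of each may hold that of the other. With array weights estimated by limma, Hspa1a passed downward (log2 fold change -0.49 ± 0.11, adjusted p = 0.0354). At mean levels of 1.06 and 1.47 both genes lay near the bottom of the scale in all 6 samples.

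The other Hspa genes, outside the rule for named genes and described after their values were seen, were mostly dim. Hspa2, Hspa12a and Hspa12b lay higher with the mimic on all 3 arrays (log2 fold changes 0.37 ± 0.14, 0.16 ± 0.088 and 0.26 ± 0.10, adjusted p = 0.242, 0.415 and 0.245 by limma), with no array of the 3 genes above 2.17. Hspa13, of the endoplasmic reticulum, and Hspa14, which works at the ribosome, overlapped between groups (log2 fold changes 0.15 ± 0.19 and 0.040 ± 0.084). Over the 10 Hspa genes outside the HSP110 group the median log2 fold change was 0.032, with 0 called and 5 without overlap (3 higher, 2 lower), or 50%, against 22.2% of all genes. The 2 lower ones were the near-identical pair Hspa1a and Hspa1b, which may not be separate readings, and all 5 were dim.

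Of HSP90, 2 genes were measured, and Hsp90ab1 was not analysed here. Hsp90aa1 (15519), the stress-inducible form in the cytosol, read 8.53, 8.98 and 9.004 on control arrays 1, 2 and 3 and 9.15, 9.14 and 9.10 on mimic arrays 1, 2 and 3. The 3 mimic arrays were close together and above all controls, and control array 1 lay well below the other controls. The difference did not pass (a log2 difference of 0.29 ± 0.14 at limma's adjusted p = 0.34, interval -0.027 to 0.61). Without control array 1 the difference was 0.14 (limma's adjusted p = 0.439). A second probe set of the gene read 8.63, 8.90 and 8.89 in control and 8.90, 8.19 and 8.94 with the mimic and had the opposite sign (-0.12 ± 0.21). Mimic array 2 was its lowest array, and without that array the sign turned (0.12). Hsp90b1 (22027), the HSP90 of the endoplasmic reticulum, read 8.40, 8.69 and 8.50 in control and 8.47, 8.64 and 8.66 with the mimic, with overlap (a log2 difference of 0.060 ± 0.11 at limma's adjusted p = 0.843).

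The mitochondrial chaperonin genes Hspd1 (15510), for HSP60, and Hspe1 (15528), for HSP10, lie head to head and share the stretch between them. Hspd1 read 8.10, 8.55 and 8.45 on control arrays 1, 2 and 3 and 8.23, 8.21 and 8.23 on mimic arrays 1, 2 and 3. The mimic arrays were close together and inside the wider range of the controls, where array 1 was low (a log2 difference of -0.14 ± 0.13 at limma's adjusted p = 0.642). Without control array 1 the log2 fold change of Hspd1 was -0.28 (adjusted p = 0.175), and without control array 2 it was -0.050 (adjusted p = 0.905). Hspe1 read 8.44, 8.48 and 8.46 in control and 8.59, 8.51 and 8.31 with the mimic, here with tight controls and a low mimic array 3 (a log2 difference of 0.0061 ± 0.10 at limma's adjusted p = 0.986, interval -0.23 to 0.24). Of 7 chaperone genes of the mitochondrion, which also include Hspa9, Dnaja3, Dnajc11, Dnajc15 and Dnajc30, 0 passed. All 7 intervals lay within 1.5-fold, against 77.2% of all genes.

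**Figure D2:**
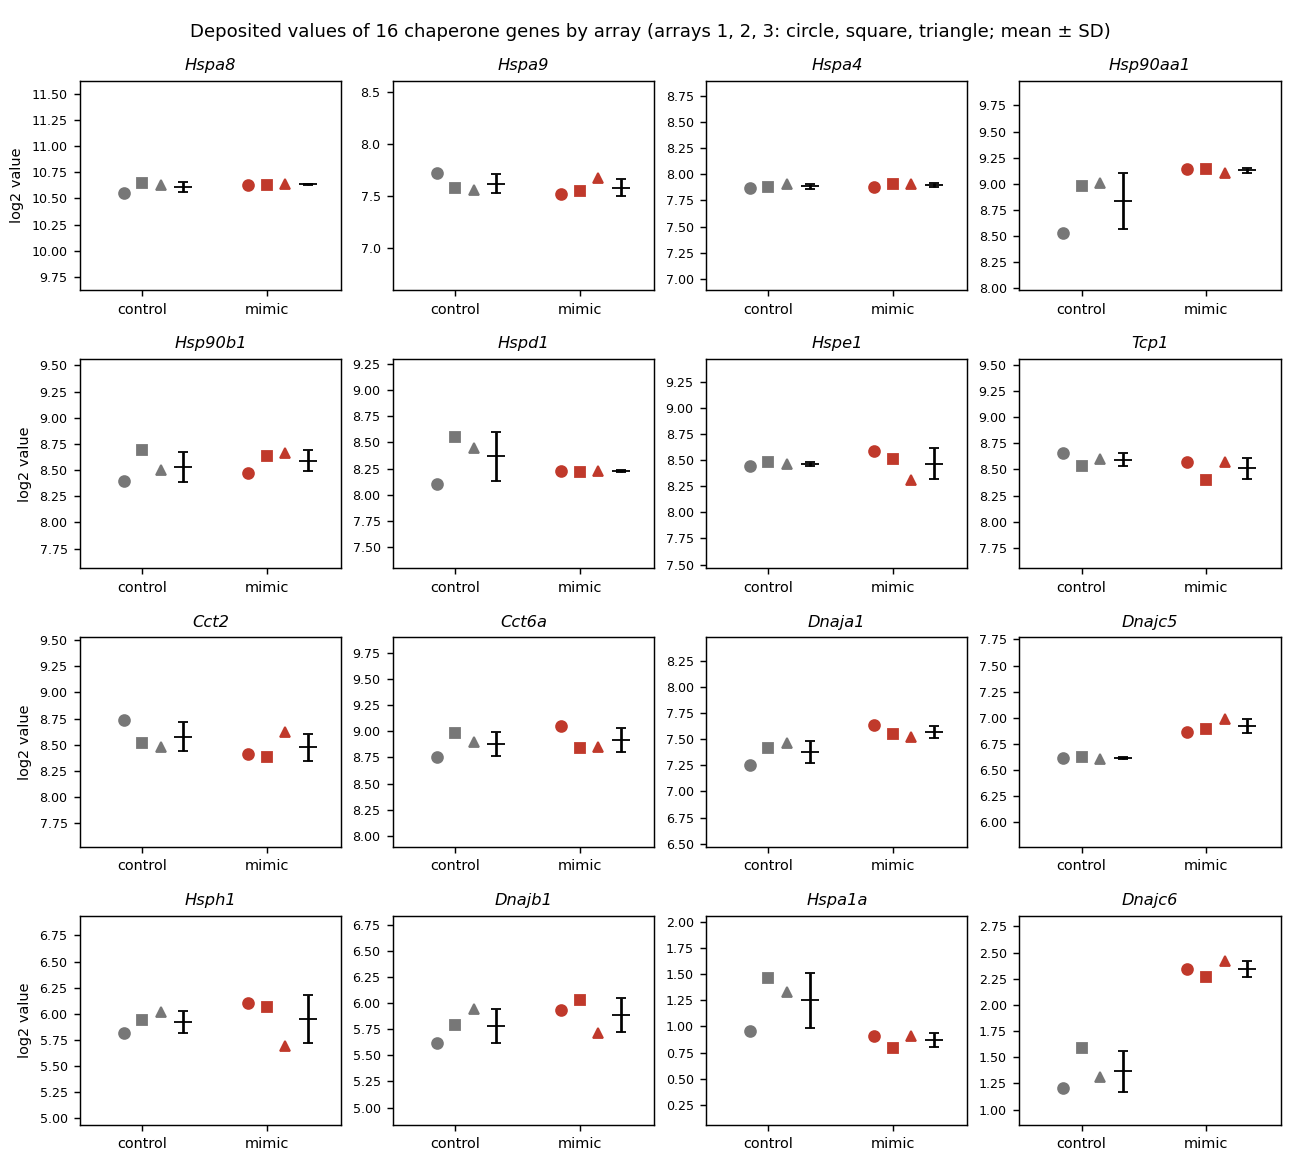
Deposited log2 values of 16 chaperone genes (y axes, each spanning 2 log2 units) on the control arrays (grey) and mimic arrays (red), with circle, square and triangle for arrays 1, 2 and 3 and the mean ± SD beside them. In Hsp90aa1 and Hspd1 control array 1 lies below the other controls, and in Dnajc6 the mimic arrays lie between 2.26 and 2.42, above the controls at 1.20 to 1.59.

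Since HSF1 binds repeated GAA units, the promoters of the chaperone genes were searched for the letters GAANNTTCNNGAA, 3 such units, on both strands. RefSeq promoter windows (GRCm38.p6, 300 bases that span a transcription start) were at hand for 65 of the 79 genes. The other 14, among them Hspa8 and Hsp90aa1, had no window and were not searched. Of the 65, 4 held the motif (Hspd1, Hspe1, Hsph1 and Dnajb6), or 6.15%, against 0.662% of 27025 genes in the table. The shorter GAANNTTC, which also lies inside the longer motif, was in 15 of the 65, or 23.1%, against 9.04%, and TTCNNGAA, likewise part of the longer motif, in 8, or 12.3%, against 9.6%. A match is a stretch of letters and not a measured site. The windows of Hspe1 at chr1:55087898-55088197 (plus strand), Hsph1 at chr5:149636287-149636586 (minus strand) and Dnajb6 at chr5:29735729-29736028 (plus strand) are shown because they hold the 3-unit motif, in capitals (2 overlapping matches in Hspe1). The Hspe1 window shares 285 bases with a window of Hspd1, and the motif letters lie in the shared part. The 4 genes and the 6.15% therefore count this stretch for both genes.
Hspe1: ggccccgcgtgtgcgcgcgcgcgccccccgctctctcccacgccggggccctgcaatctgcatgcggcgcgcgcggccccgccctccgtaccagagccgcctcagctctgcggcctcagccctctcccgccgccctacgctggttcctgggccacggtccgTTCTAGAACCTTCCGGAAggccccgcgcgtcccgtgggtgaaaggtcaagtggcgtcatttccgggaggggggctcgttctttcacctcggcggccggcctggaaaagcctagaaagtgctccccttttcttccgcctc
Hsph1: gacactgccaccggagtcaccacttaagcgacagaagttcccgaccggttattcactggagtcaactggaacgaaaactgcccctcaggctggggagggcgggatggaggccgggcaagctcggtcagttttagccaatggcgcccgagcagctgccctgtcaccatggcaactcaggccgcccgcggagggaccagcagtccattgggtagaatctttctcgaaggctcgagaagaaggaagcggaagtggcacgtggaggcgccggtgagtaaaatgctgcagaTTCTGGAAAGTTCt
Dnajb6: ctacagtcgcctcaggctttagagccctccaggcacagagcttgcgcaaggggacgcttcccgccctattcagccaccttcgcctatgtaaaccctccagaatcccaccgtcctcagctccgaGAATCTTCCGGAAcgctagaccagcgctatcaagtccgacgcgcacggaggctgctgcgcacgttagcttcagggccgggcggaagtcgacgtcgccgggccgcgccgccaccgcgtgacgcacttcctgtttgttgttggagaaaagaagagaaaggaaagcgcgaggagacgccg

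The 4 genes with this motif had log2 fold changes of -0.14 (Hspd1), 0.0061 (Hspe1), 0.032 (Hsph1) and 0.15 (Dnajb6), and 0 of the 4 passed. The windows of Hspa1a at chr17:34972107-34972406 (minus strand) and Hspa1b at chr17:34959189-34959488 (minus strand) are shown because the copies also share this stretch, with the same letter at 296 of 300 positions. Capitals mark GAANNTTC, which each holds 1 time, while the 3-unit motif is not in these windows.
Hspa1a: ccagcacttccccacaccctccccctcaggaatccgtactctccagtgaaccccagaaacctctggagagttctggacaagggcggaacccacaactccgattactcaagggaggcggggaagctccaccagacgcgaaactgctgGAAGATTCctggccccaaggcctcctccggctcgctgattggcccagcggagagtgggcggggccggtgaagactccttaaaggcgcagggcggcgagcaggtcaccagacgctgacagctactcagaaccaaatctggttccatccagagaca
Hspa1b: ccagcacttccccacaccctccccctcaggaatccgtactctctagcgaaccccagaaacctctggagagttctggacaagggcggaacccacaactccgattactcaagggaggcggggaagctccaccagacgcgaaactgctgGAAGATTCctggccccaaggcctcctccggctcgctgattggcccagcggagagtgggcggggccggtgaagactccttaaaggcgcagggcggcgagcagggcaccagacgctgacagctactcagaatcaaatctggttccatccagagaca

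The heat-inducible genes were split in direction. Of 10 listed (Hspa1a, Hspa1b, Hsph1, Hspb1, Dnajb1, Hspa8, Hsp90aa1, Hspd1, Hspe1 and Dnaja1) 0 passed, 6 had higher and 4 lower means, and the median log2 fold change was 0.015. Relative to the control mean of each gene, the median of the 10 was -0.12, 0.035 and 0.082 on control arrays 1, 2 and 3 and 0.074, 0.033 and -0.10 on mimic arrays 1, 2 and 3. The spread of these medians within each group was wider than the distance between the groups. Read gene by gene, the groups did not overlap in 40% of the 10 (2 higher, 2 lower), against 22.2% of all genes. The 2 lower ones were the near-identical pair Hspa1a and Hspa1b. Hspb1 (15507), for a small heat shock protein that binds actin as well as unfolded proteins, was dim, at 2.54, 2.15 and 2.49 in control and 2.24, 2.36 and 2.35 with the mimic (a log2 difference of -0.076 ± 0.12 at limma's adjusted p = 0.819).

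The CCT subunits, which together fold actin and tubulin, differed little between the groups in the probe sets read here. All 8 lay between 7.67 and 9.05 on every array, 4 had higher and 4 lower means, and their log2 fold changes ran from -0.10 to 0.083. The intervals of all 8 lay within 1.5-fold, and 0 of the 8 separated the groups, against 22.2% of all genes and 43.8% of those with a mean log2 of at least 6. Read this way, Cct2 (12461) had the largest change, with 8.73, 8.52 and 8.48 in control and 8.41, 8.39 and 8.62 with the mimic (a log2 difference of -0.10 ± 0.11 at limma's adjusted p = 0.717). Control array 1 and mimic array 3 were its 2 highest arrays. Its other probe sets had higher means with the mimic, by 0.070 ± 0.088 and, at 7.11, 7.29 and 7.19 in control and 7.62, 7.51 and 7.61 with the mimic and without overlap, by 0.38 ± 0.092 (adjusted p = 0.114 in limma's fit of all probe sets). With all 3 averaged the difference of Cct2 was 0.12 (adjusted p = 0.508). Tcp1 (21454), the alpha subunit gene, read 8.65, 8.53 and 8.60 in control and 8.57, 8.40 and 8.57 with the mimic (a log2 difference of -0.082 ± 0.10 at limma's adjusted p = 0.734). Cct3, Cct4, Cct5 and Cct6a had slightly higher means (0.083 ± 0.094, 0.022 ± 0.086, 0.027 ± 0.090 and 0.036 ± 0.11) and Cct7 and Cct8 slightly lower ones (-0.087 ± 0.10 and -0.0049 ± 0.10). In the probe sets read here the 95% intervals of these 6 reached no further than -0.33 and 0.30. Dimmer probe sets of Cct4 (0.29 ± 0.089 and 0.26 ± 0.092) and Cct3 (0.42 ± 0.12) were higher on all mimic arrays. They did not pass (adjusted p = 0.189, 0.244 and 0.153 in limma's fit of all probe sets). The remaining probe sets of Cct3 and Cct4 overlapped between the groups.

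Among J proteins of the A class, the closest partners of HSP70 in folding, all 4 had higher means in the probe sets read here and 0 passed. Dnaja1 (15502) read 7.26, 7.41 and 7.46 on control arrays 1, 2 and 3 and 7.63, 7.55 and 7.52 on mimic arrays 1, 2 and 3. Every mimic array was above every control, by a small margin (a log2 difference of 0.19 ± 0.10 at limma's adjusted p = 0.38, interval -0.033 to 0.41). Its other 2 probe sets were also higher in their means (0.12 ± 0.11 and 0.50 ± 0.17). Dnaja2 (56445) overlapped between groups (7.85, 8.14 and 8.09 in control and 8.04, 8.004 and 8.18 with the mimic, log2 fold change 0.047 ± 0.11), as did Dnaja3 and Dnaja4. Dimmer probe sets of these genes went both ways. Those of Dnaja2 had log2 fold changes of -0.20 ± 0.11, 0.15 ± 0.15 and -0.46 ± 0.21. Those of Dnaja3 had -0.22 ± 0.25 and -0.031 ± 0.099, and those of Dnaja4 0.084 ± 0.12 and -0.20 ± 0.17.

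Of 13 measured B class genes 0 passed, against 2.76% of all genes. In the B class 10 had higher and 3 lower means (median log2 fold change 0.082, range -0.60 to 0.33). Dnajb7, counted among the 10, had the same mean of 0.13 in both groups. Dnajb1 (81489), the J protein gene most raised by heat, read 5.61, 5.79 and 5.94 in control and 5.93, 6.03 and 5.71 with the mimic (a log2 difference of 0.11 ± 0.13 at limma's adjusted p = 0.734). Dnajb6 (23950), whose product holds back aggregation of glutamine-rich proteins, read 6.14, 6.73 and 6.84 in control and 6.84, 6.80 and 6.52 with the mimic. Control array 1 was low and the interval was wide (-0.29 to 0.59), and without that array the log2 fold change was -0.069. The largest change in the class was in Dnajb2, described after its values were seen, at 2.33, 2.40 and 2.33 in control and 2.16, 1.71 and 1.39 with the mimic. It was lower on all mimic arrays, which were themselves spread out (a log2 difference of -0.60 ± 0.18 at limma's adjusted p = 0.139).

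J proteins of the endoplasmic reticulum, which serve the HSP70 of that compartment, were split in direction. Dnajb9 (27362) read 4.75, 5.47 and 5.55 in control and 5.37, 5.56 and 5.00 with the mimic, with low values on control array 1 and mimic array 3 (a log2 difference of 0.054 ± 0.23 at limma's adjusted p = 0.938). Its sign turned with the array left out, from -0.20 without control array 1 to 0.21 without mimic array 3. Dnajb11 (67838) read 7.01, 7.06 and 7.12 in control and 6.88, 7.01 and 6.90 with the mimic (a log2 difference of -0.13 ± 0.089 at limma's adjusted p = 0.549). Dnajc3 (100037258), which also restrains a kinase of the unfolded protein response, read 5.39, 5.35 and 5.38 in control and 5.17, 5.05 and 5.40 with the mimic. Here mimic array 3 lay with the controls (a log2 difference of -0.17 ± 0.11 at limma's adjusted p = 0.522). Of 9 chaperone genes of this compartment 0 passed, against 2.76% of all genes, and 5 had higher and 4 lower means. The groups were separated in 0 of the 9, against 22.2% of all genes.

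The C class, which holds J proteins of many functions, had 27 measured genes, of which 1 rose and 0 fell. That is 3.7% called, against 2.76% of all genes. The means of the 27 were higher in 14 and lower in 13, and the groups did not overlap in 6 (4 higher, 2 lower), or 22.2%, the same share as of all genes. Dnajc6 (72685) read 1.20, 1.59 and 1.31 on control arrays 1, 2 and 3 and 2.34, 2.26 and 2.42 on mimic arrays 1, 2 and 3. The lowest mimic array lay well above the highest control, and neither group was spread as widely as the distance between them. This is 1.37 ± 0.20 (SD, n = 3) for the controls and 2.34 ± 0.076 (SD, n = 3) for the mimic arrays, a 1.96-fold difference (a log2 difference of 0.97 ± 0.12 at limma's adjusted p = 0.0121, interval 0.70 to 1.25). The other 3 probe sets of the gene stayed at or below 0.50 on every array, with log2 fold changes of 0.13 ± 0.11, -0.0063 ± 0.11 and 0.010 ± 0.11. With all 4 averaged the log2 fold change was 0.28 and did not pass (limma's adjusted p = 0.134). The call was also lost without control array 2 (adjusted p = 0.0581), mimic array 1 (0.0927), mimic array 2 (0.0585) or mimic array 3 (0.0699), at log2 fold changes of 0.94 to 1.08.

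Dnajc5 (13002), for the cysteine string protein that guards secretory vesicles, read 6.61, 6.63 and 6.61 on control arrays 1, 2 and 3 and 6.87, 6.90 and 6.99 on mimic arrays 1, 2 and 3. The controls were close together and all mimic arrays were higher, yet the difference did not pass over all genes (a log2 difference of 0.30 ± 0.086 at limma's adjusted p = 0.125, interval 0.10 to 0.50). With only genes of a mean log2 of at least 5 tested, it did (adjusted p = 0.033). With all 5 probe sets averaged the difference was 0.016 (adjusted p = 0.966). Its second brightest probe set was higher by 0.23 ± 0.083, while 2 others had lower means (-0.19 ± 0.16 and -0.31 ± 0.27). Without mimic array 2 these 2 went to -0.086 and 0.016. Dnajc13, chosen after its values were seen, whose product works on endosomes, was higher on all mimic arrays by a small margin (log2 fold change 0.11 ± 0.086, adjusted p = 0.583). Dnajc8 (68598), of RNA splicing, read 7.85, 7.79 and 7.97 in control and 7.97, 7.95 and 7.96 with the mimic (log2 fold change 0.089 ± 0.090).

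The remaining C class genes lay between -0.31 (Dnajc7) and 0.26 (Dnajc22). Dnajc7, an adaptor between HSP70 and HSP90, was lower on all mimic arrays, at 5.06, 5.38 and 5.31 in control and 4.77, 5.05 and 5.00 with the mimic (not passing, with a log2 difference of -0.31 ± 0.12 at limma's adjusted p = 0.257). In Dnajc17 control array 1 and mimic array 3 were high (6.36 and 6.30 against 5.24 to 5.68 on the others), and in Dnajc14 the same arrays were low. These genes were chosen after their values were seen.

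The 8 Hspb genes were dim, with a mean log2 under 3 in every case, and 0 passed. Of these and 2 further genes with such names, Hspb11 and Hspbp1 were chosen after their values were seen. Hspb11, the cilium gene, had the largest change (log2 fold change -0.41 ± 0.19, adjusted p = 0.343 by limma), most of it on mimic array 3, at 2.21. The exchange factor gene Hspbp1 was lower on all mimic arrays (4.40, 4.33 and 4.16 in control and 4.02, 4.11 and 3.93 with the mimic, a log2 difference of -0.28 ± 0.10 at limma's adjusted p = 0.22). Hspb2, Hspb3, Hspb7, Hspb8 and Hspb9, several of them best known from muscle, all outside the rule, did not exceed 1.31 on any array.

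Different probe sets of a gene often differed in the sign of their change. Of the 51 chaperone genes with several probe sets, 16 had the same sign in all of them. Among the 28 with several probe sets of a mean log2 of at least 3, 10 did. The same shares over all genes were not computed. Some of these signs belong to changes smaller than their standard errors, as in Cct8 (-0.0049 ± 0.095 and 0.031 ± 0.11). In a fit of all 34945 probe sets 1 of the 196 chaperone probe sets was called, that of Dnajc6 (adjusted p = 0.0242 by limma), against 1.16% of all. For Hspa8 the 3 brightest probe sets were higher by 0.024 ± 0.083, 0.29 ± 0.11 and 0.19 ± 0.10 and the dim last one had a lower mean, by a log2 fold change of -0.67 ± 0.16 (adjusted p = 0.105). When the probe sets of each gene were averaged, the difference turned to -0.041 in Hspa8, -0.086 in Hspa4, -0.145 in Hsph1, -0.26 in Hsp90b1, -0.12 in Dnaja2, -0.051 in Dnajb1 and -0.084 in Dnajb6, and to 0.12 in Cct2, 0.002 in Hspa9 and 0.013 in Cct8, with none of these passing. Mimic array 2 lay at least 0.5 below each of the other 5 arrays in 3 of 61 chaperone probe sets of a mean log2 of at least 5, or 4.92%, against 0.955% of 5551 such probe sets overall. Control array 1 lay that low in 3.95% of the 5551 and in 0 of the 61. The 3 in which mimic array 2 lay low were the second of Hsp90b1, at 6.54, 7.29 and 7.16 in control and 6.58, 5.54 and 7.13 with the mimic, the third of Hsp90aa1, at 5.84, 6.37 and 6.47 in control and 6.33, 5.17 and 6.71 with the mimic, and another of Cct3, at 6.42, 6.21 and 6.24 in control and 6.19, 5.45 and 6.50 with the mimic. Without mimic array 2 their log2 fold changes went from -0.58, -0.16 and -0.25 to -0.14, 0.29 and 0.053. The same array had the widest gap between 3′ and 5′ control probe sets, and the part of this in the probe set values was not tested.

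**Figure D3:**
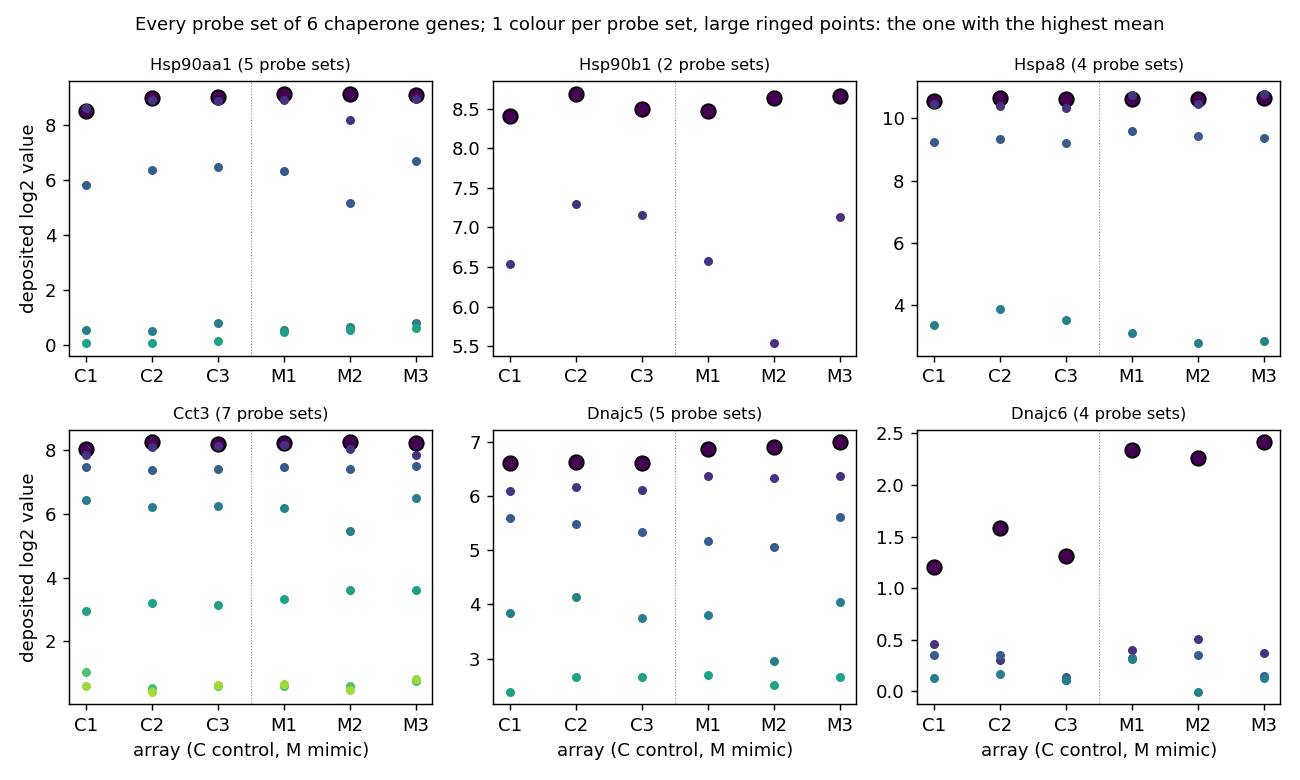
Deposited log2 value (y axis) of each probe set of 6 chaperone genes on control arrays C1 to C3 and mimic arrays M1 to M3, 1 colour per probe set, with large ringed points for the brightest one. M2 is low in 1 dimmer probe set each of Hsp90b1 (5.54), Hsp90aa1 (5.17) and Cct3 (5.45). Only in the brightest probe set of Dnajc6 does every mimic array lie more than 0.5 above every control array.

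The wider chaperone pathway was read from a list of 57 co-chaperones, cofactors and regulators, of which 52 were measured and the others, among them Hsf1, were not analysed here. None passed over all genes by limma (0 rose, 0 fell), against 2.76% of all genes. At limma's unadjusted p under 0.05 there were 7 of the 52, while 17% of all genes lay there. Of the 52, 18 had higher and 34 lower means (median log2 fold change -0.066). The groups did not overlap in 19 of the 52 (5 higher, 14 lower), or 36.5%, against 22.2% of all genes. The listed genes are brighter than most: 20 of the 52 had a mean log2 of at least 6, of which 10, or 50%, did not overlap, against 43.8% of all genes at that level. Among 13 HSP90 co-chaperones 4 had higher and 9 lower means. Cdc37, which brings kinases to HSP90, read 7.88, 7.64 and 7.62 in control and 7.47, 7.21 and 7.59 with the mimic (a log2 difference of -0.29 ± 0.13 at limma's adjusted p = 0.301). Among 14 HSP70 co-chaperones 9 were higher and 5 lower. The largest change was in Stub1, the ubiquitin ligase that marks HSP70 and HSP90 clients for breakdown, at 7.02, 6.66 and 6.61 in control and 6.30, 6.16 and 6.50 with the mimic, with no overlap (a log2 difference of -0.44 ± 0.14 at limma's adjusted p = 0.166). Tomm70a, a mitochondrial import receptor that docks both chaperones, was higher on all mimic arrays, at 6.49, 6.61 and 6.60 in control and 6.78, 6.84 and 6.94 with the mimic (a log2 difference of 0.29 ± 0.092 at limma's adjusted p = 0.16), and passed with only genes of a mean log2 of at least 5 tested (adjusted p = 0.049). Of 10 genes of prefoldin, which hands actin and tubulin to CCT, and of CCT cofactors 2 had higher means, Vbp1 and Txndc9 (0.29 ± 0.12 and 0.26 ± 0.11), and 8 lower ones, down to -0.26 ± 0.12 in Pfdn2. Among 3 measured J proteins with other names, Hscb was higher (0.25 ± 0.093) and Gak and Sec63 were lower (-0.25 ± 0.088 and -0.29 ± 0.14). The groups did not overlap in any of them, and none passed (adjusted p = 0.222, 0.2 and 0.345 by limma). Cdc37, Stub1, Tomm70a, Hscb, Gak, Sec63, Vbp1, Txndc9 and Pfdn2 were chosen after their values were seen. All 5 measured mitochondrial chaperones and proteases had slightly lower means, from -0.16 to -0.084. The heat shock factor genes Hsf2, Hsf4 and Hsf5 did not exceed 0.76 on any array.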

How the data were processed

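Total RNA of 6 samples, 3 of each group, was measured on 1 array each. Per the submitters' processing notes the arrays were processed with RMA and affy (versions: not given in the sources used), and the deposited values are on a log2 scale. Depth has no meaning here, and the 3 arrays of a group limit the precision. The authors' log2 values were used without further scaling. Of 45101 probe sets, 64 controls, 932 with several symbols and 9160 with none in the annotation given were left out, and 34945 with 1 symbol gave 18193 genes, each read through the probe set with the highest mean. Genes were grouped and named by the current RefSeq symbol found through the platform's Entrez identifier, which 34741 of the probe sets had. The rest kept the platform symbol, which can be old. The rule for chaperone genes used the platform symbol, which differed from the current one in 0 of the 79.

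The test was that of limma (version 3.58.1, under R 4.3.3), 2-sided and without covariates, with Benjamini-Hochberg adjustment over all genes and a threshold of 0.05. The steps were tested on simulated data. Genes were named if they passed, if they were among the 5 largest rises or 5 largest falls of those with a group mean log2 of at least 6, or if they stood on a list of 27 well known chaperone genes, of which 1 was not analysed here. Genes outside this rule that are singled out with values are marked in the text. The members, gene lists and alternatives were chosen with earlier results of these data known. The replicate numbers of the titles were not used as pairs in the main fit. Deviations from the group means correlated at -0.13, 0.34 and -0.30 between arrays of one number. Across numbers the largest correlation was 0.4, between control array 1 and mimic array 3. With so few arrays these correlations cannot tell whether arrays were handled in pairs. Alternatives were the number as a block, single arrays left out, a minimum mean log2 of 3 or 5, all probe sets fitted or averaged, median centring, quantile normalisation, a trended robust variance and array weights.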

Additional observations from a re-analysis of the deposited data

How the results depend on the processing

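The count of 1 chaperone gene that rose went to 0 with only genes of a mean log2 of at least 3 tested, since Dnajc6 is dimmer, and with the mean of all probe sets of a gene. It ran from 0 to 1 with single arrays left out, where the count of all genes called ran from 0 to 413 and the chaperone median from 0.000 to 0.035 (0.000 without control array 1, 0.012 without mimic array 2). All genes called came to 65 without mimic array 2 and to 0 by limma in 3 fits, which omitted control array 2, the first mimic array or the third mimic array. At an unadjusted p under 0.05 these 3 fits had 2564, 2343 and 2746 genes and 4, 6 and 7 chaperone genes. With array weights 1047 genes passed, and 1 chaperone gene, Hspa1a, fell. With genes of a mean log2 of at least 5, 641 passed, and 1 chaperone gene (Dnajc5) and 1 partner gene (Tomm70a) rose. With the mean of all probe sets the chaperone median was 0.002. With the replicate number as a block 314 genes passed against 503 without it, Dnajc6 among them (adjusted p = 0.028), and no other call among chaperone and partner genes changed. Over its alternatives the log2 fold change of Dnajc6 ran from 0.28 to 1.08 and its adjusted p from 0.00415 to 0.134. Dnajc6 was higher with the mimic under every alternative that tested it. Apart from the filter, the cause of these changes was not tested.

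With 3 arrays a group, differences of dim genes near the bottom of the scale are measured least well, and the labels name no date or batch for the arrays.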
